A study of Mus musculus with 24 samples.

Results

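The genes described here are 39 mouse genes of the cell cycle and of DNA replication, taken by name from the 14995 genes of the deposited tables. They run from cyclin D1, which acts in the growth phase before replication, to the proteins that split the cell at the end of mitosis. Of the 39, 37 had enough reads to be tested, and 2, Aurkb and Bub1b, did not pass the filter on low counts. RNA was measured in the livers of obese mice in 3 groups of 8 libraries, 20 weeks after surgery. The Sham mice had a sham operation, the RYGB mice had Roux-en-Y gastric bypass, and the WM mice ate a restricted number of calories so that their weight matched that of the RYGB mice. Libraries carry the sample numbers of the labels (Sham 3, WM 13, RYGB 22). The labels give no strain, sex, age or diet, and do not say whether the WM mice were operated on. Nothing in the labels beyond the sample numbers says that each library came from its own mouse, and the p-values measure the spread between these libraries.

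A cell enters division when cyclin D with Cdk4 or Cdk6, and then cyclin E, release the E2F factors that switch on the genes of DNA replication. The Mcm proteins form the helicase that opens the DNA, and ribonucleotide reductase and thymidylate synthase supply its building blocks. Cyclin B with Cdk1 then drives mitosis, in which centromere and spindle proteins pull the chromosomes apart, and Cdc20 and Ube2c direct the breakdown of the cyclins. In the adult liver most hepatocytes rest outside the cycle, many carry more than the usual set of chromosomes, and dividing cells can also be immune, endothelial or stellate cells. The 39 genes were read in this order, 16 early ones (growth phase, replication and nucleotide supply) and 23 late ones (from the S phase cyclins to mitosis).

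Genes of the late cell cycle are known for 2 promoter elements, the CCAAT box and the cell cycle genes homology region (CHR, searched here as TTTGAA). Promoters of 4 members are shown because both differences from Sham were called for these genes, smallest p first among those with an entry. Each line holds the 250 bases before the gene start in RefSeq (GRCm38.p6), 5′ to 3′ on the gene's own strand, which is the minus strand for all 4. Capitals mark CCAAT or its reverse ATTGG, and TTTGAA. The stretches are chr1:189688087-189688336 for Cenpf, chr4:118437344-118437593 for Cdc20, chr6:88898781-88899030 for Mcm2 and chr7:135716380-135716629 for Mki67.
Cenpf: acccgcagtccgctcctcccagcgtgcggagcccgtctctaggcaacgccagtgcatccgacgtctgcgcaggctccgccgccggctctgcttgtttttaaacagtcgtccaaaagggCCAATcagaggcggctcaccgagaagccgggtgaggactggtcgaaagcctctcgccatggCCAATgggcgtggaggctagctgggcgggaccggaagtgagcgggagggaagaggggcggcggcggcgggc
Cdc20: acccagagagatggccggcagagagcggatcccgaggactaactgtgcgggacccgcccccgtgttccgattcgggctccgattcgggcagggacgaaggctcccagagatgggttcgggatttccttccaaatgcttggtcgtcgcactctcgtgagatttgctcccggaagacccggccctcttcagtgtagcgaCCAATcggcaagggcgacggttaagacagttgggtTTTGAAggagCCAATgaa
Mcm2: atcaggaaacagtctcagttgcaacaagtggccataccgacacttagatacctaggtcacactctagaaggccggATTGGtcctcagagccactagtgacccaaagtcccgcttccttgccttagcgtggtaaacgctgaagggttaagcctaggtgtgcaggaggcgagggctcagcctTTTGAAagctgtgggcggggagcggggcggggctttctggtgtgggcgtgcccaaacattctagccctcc
Mki67: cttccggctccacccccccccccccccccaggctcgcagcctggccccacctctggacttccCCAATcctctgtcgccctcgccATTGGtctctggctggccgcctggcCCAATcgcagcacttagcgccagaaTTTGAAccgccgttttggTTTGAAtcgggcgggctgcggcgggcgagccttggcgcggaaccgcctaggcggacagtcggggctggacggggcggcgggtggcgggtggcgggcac

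Cdc20, the activator of the anaphase-promoting complex, has a CHR-type motif from base -18 to -13 and CCAAT boxes from -53 to -49 and from -8 to -4. Mki67, whose product coats mitotic chromosomes, has CHR-type motifs from -116 to -111 and from -98 to -93. Cenpf, which encodes a kinetochore protein, has CCAAT boxes from -132 to -128 and from -71 to -67, and its CHR-type motif lies past the start, from base 3 to 8. Mcm2, an early member, has a CHR-type motif from -70 to -65.

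Of the 39 members, 33 had a promoter in the RefSeq table, with 36 promoters in all, read from 250 bases before to 50 after the start on both strands. TTTGAA stood in 18 of 22 late promoters (81.8%), in 2 of 14 early promoters (14.3%) and in 5878 of all 32851 promoters (17.9%). CCAAT stood in 20 of 22 late (90.9%), 10 of 14 early (71.4%) and 37.4% of all promoters. An E2F-type motif (TTTCCCGC, TTTGGCGC, TTTGCCGC or TTTCGCGC) stood in 1 of 22 late (4.55%), 4 of 14 early (28.6%) and 2.26% of all promoters. A match describes letters and is not a measured binding site.

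**Figure D1:**
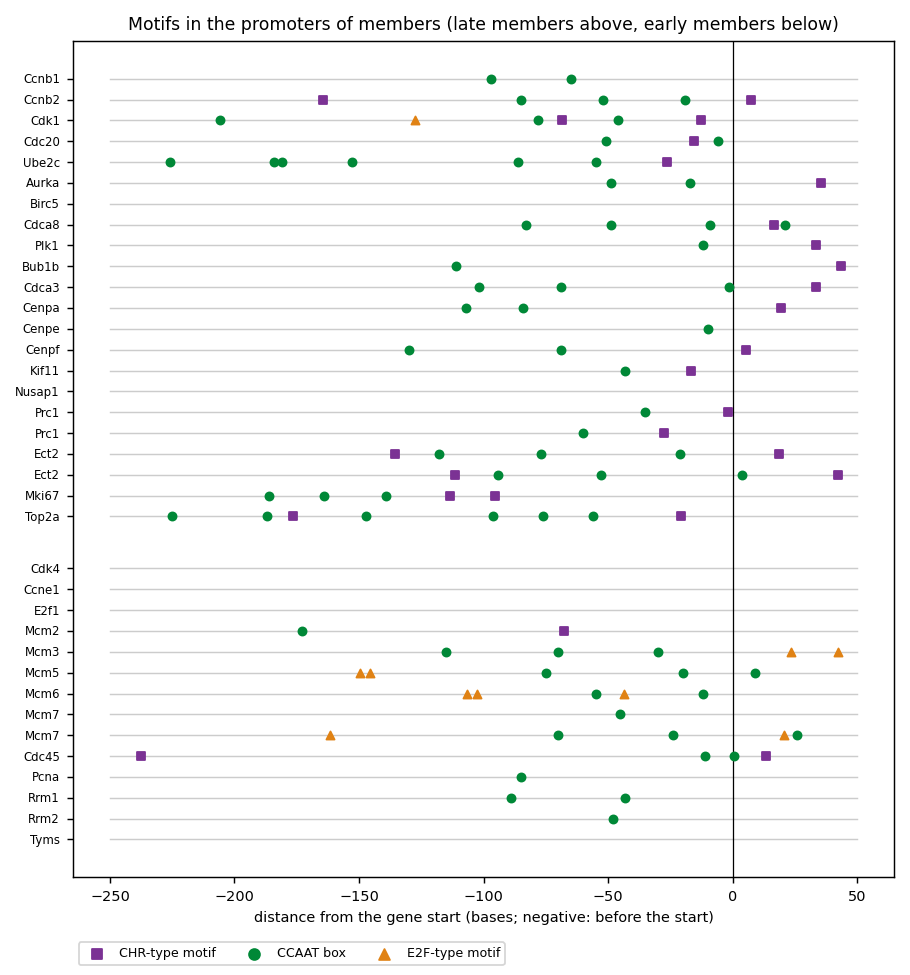
Places of the CHR-type motif (TTTGAA), the CCAAT box and the E2F-type motif in 36 promoters of 33 members, one line per promoter, with the distance from the gene start in bases on the x axis. CHR-type motifs stand in 18 of 22 late promoters in the upper block and in 2 of 14 early promoters in the lower block.

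Most calls among the members were of late genes and pointed down, 7 of 21 tested late members in RYGB and 11 of 21 in WM, beside 3 of 16 early members in each. Against Sham, 10 of 37 tested members were lower in RYGB and 0 were higher (edgeR's quasi-likelihood test, adjusted p under 0.05), where 11.0% of all 13121 tested genes were called lower and 12.7% higher (23.7% in all). Against Sham, 14 were lower in WM and 2 were higher, where 15.0% of all tested genes were called lower and 16.5% higher (31.4% in all). Over all 39 members without the filter, the counts were 10 lower in RYGB, and 13 lower and 2 higher in WM. Both comparisons use the same Sham libraries, so they are not independent of each other. The median log2 fold change of the members was -0.96 in RYGB and -0.87 in WM, and that of all tested genes was -0.01 in each. The count of lower members in RYGB ranged from 8, without Sham 3, to 14, without RYGB 19 or without RYGB 22. In WM it ranged from 9, without Sham 5, to 15, without WM 13.

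Between RYGB and WM, no member was called in edgeR's quasi-likelihood test, where 1.06% of all genes were called higher in RYGB and 0.434% lower. At an unadjusted p under 0.05, 6 of 37 members differed, 3 in each direction, against 11.1% of all genes. DESeq2 called 2 members lower in RYGB than in WM, Ccne1 and Ccne2, and limma-voom with library quality weights called 1, Ccne1. For no member did every RYGB library lie below every WM library, which 0.0762% of all genes showed. The median of the members was 0.05 on the log2 scale.

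**Figure D2:**
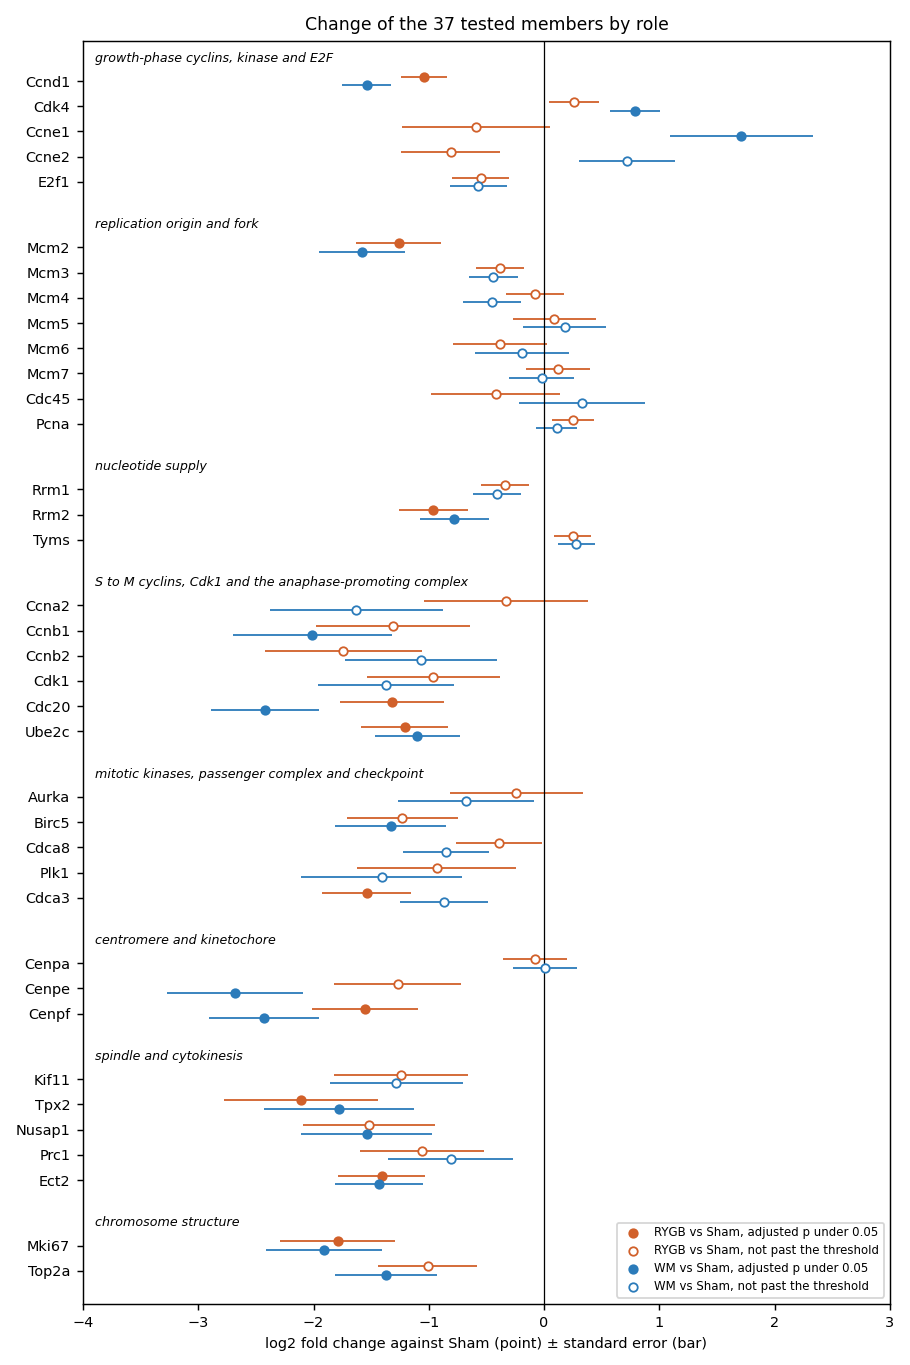
Log2 fold change against Sham of the 37 tested members (x axis, point, with its standard error as a bar), ordered by role, RYGB in orange and WM in blue, filled where the adjusted p was under 0.05. Nearly all late members lie left of 0 in both groups, with a median of -1.24 in RYGB and -1.37 in WM, while the early members lie on both sides.

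All 21 tested late members had a negative fold change in RYGB, 7 of them called, with values from -2.11 to -0.08. In WM 20 of 21 were negative and 11 were called, with values from -2.68 to 0.01. The lone member at 0.01 was Cenpa, the histone of the centromere. Summed over the 23 late members, the level was 50.9, 64.1 and 89.5 CPM (read counts scaled for library size; lowest, median and highest of 8 libraries) in Sham, 12.3, 23.4 and 50.1 CPM in WM, and 13.8, 31.2 and 57.8 CPM in RYGB. Every WM library lay below every Sham library in this sum, and RYGB overlapped Sham through RYGB 22. No late member was without a read in any Sham library, whereas 22 of 184 values in WM and 14 of 184 in RYGB were 0. Of all 14995 genes, 14315 to 14813 had a read in a Sham library. The range was 13780 to 14773 in WM libraries and 13714 to 14645 in RYGB libraries.

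In whole tissue, fewer cells of a dividing type and less RNA per cell cannot be told apart. The libraries were not alike within a group. Sham 3 held the highest value of 10 of the 23 late members, WM 13 of 9 and RYGB 22 of 11, and WM 1 held the lowest of 10. WM 13 and RYGB 22 also had the highest sum of 12 Kupffer cell markers of their groups, 892 and 1000 CPM against group medians of 444 and 455 CPM. They likewise had the highest sums of 13 markers of recruited and lipid-associated macrophages, 107 and 160 CPM against medians of 58.5 and 107 CPM. The same held for 5 neutrophil markers, with 15.4 and 17.4 CPM against medians of 8.35 and 7.19 CPM. In Sham the highest Kupffer sum was 427 CPM in Sham 2, whose late member sum of 53.7 CPM was below the group's median. The part of macrophages or neutrophils in the late member sums was not tested.

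**Figure D3:**
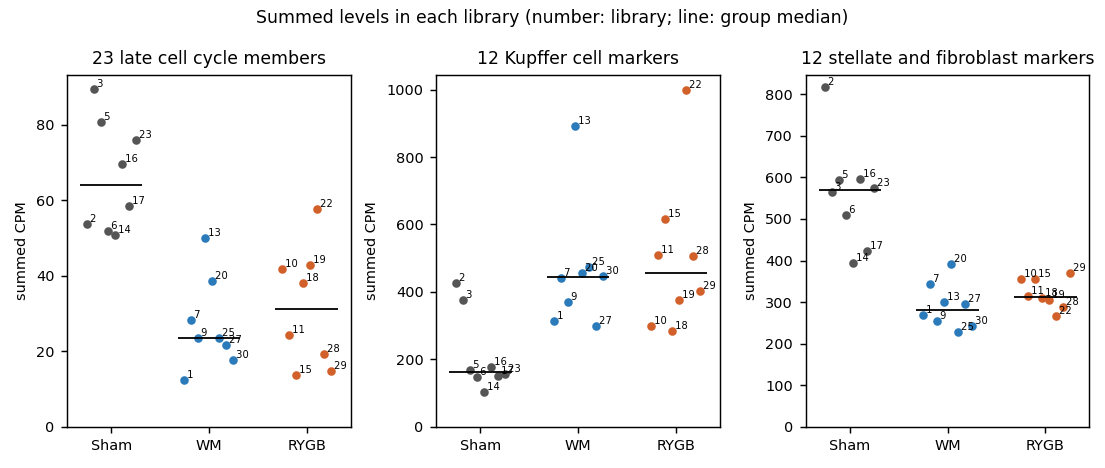
Summed CPM of the 23 late members, of 12 Kupffer cell markers and of 12 stellate cell and fibroblast markers in each of the 24 libraries (points, with the library number; line, group median). Every Sham library lies above every WM library in the late members, WM 13 and RYGB 22 lie highest in their groups in late members and Kupffer markers, and all Sham libraries lie above WM and RYGB in the stellate markers.

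Levels of liver cell type markers differed between the groups too. The sum of 14 hepatocyte markers had medians of 71100 CPM in Sham, 116000 CPM in WM and 156000 CPM in RYGB, with 9 of 14 markers called higher and 2 lower in each group against Sham. The lowest hepatocyte sum of any library was 44900 CPM, in Sham 17, and every marker in the tables had reads. Kupffer markers had medians of 162, 444 and 455 CPM in Sham, WM and RYGB, and 9 of 12 were called higher in RYGB and 7 in WM. Recruited macrophage markers had medians of 138, 58.5 and 107 CPM, with 5 of 12 tested called lower and 1 higher in RYGB and 7 lower in WM. Stellate cell and fibroblast markers had medians of 569, 282 and 313 CPM, with 5 of 11 tested called lower in RYGB and 6 in WM. The lowest stellate sum in a Sham library, 395 CPM, lay above the highest of WM, 391 CPM, and of RYGB, 371 CPM. Endothelial markers had medians of 119, 306 and 250 CPM, with 4 of 12 called higher in RYGB and 7 in WM. Cholangiocyte markers had medians of 72.4, 30.9 and 48.2 CPM, with 1 of 7 tested called lower in RYGB and 2 in WM. T and NK cell markers had medians of 8.89, 13.6 and 12.8 CPM, with 2 of 6 tested called higher in each group. B and plasma cell markers had medians of 109, 226 and 208 CPM, with 4 of 9 tested called higher in RYGB and 3 in WM. Neutrophil markers had medians of 7.61, 8.35 and 7.19 CPM, and neither tested marker was called. Erythroid markers had medians of 1450, 3650 and 4100 CPM, with 3 of 9 tested called higher in RYGB and 6 in WM. Pancreatic acinar markers had medians of 11.4 CPM in Sham, 116 CPM in WM (71.3 to 188 CPM) and 59.4 CPM in RYGB. Of the 15 in the table only Cela1 was tested, and it was called higher in each group. Without the filter on low counts, 12 of the 15 were called lower and 1 higher in WM, and 0 lower and 1 higher in RYGB. Values without a read were 57 of 120 in Sham, 91 of 120 in WM and 35 of 120 in RYGB. The acinar sum reached 1400 CPM in Sham 17 and 3130 CPM in RYGB 19, and RYGB 18 was also high. These 3 libraries are left out together in 1 alternative, in which 9 members were lower in RYGB, and 12 were lower and 2 higher in WM. The part of each cell type in the results on cell cycle genes was not tested.

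The growth-phase members did not move together. Ccnd1 encodes cyclin D1, the cyclin that hepatocytes raise when they leave rest. Its lowest, median and highest values were 115, 133 and 263 CPM in Sham, 36.5, 56.1 and 75.1 CPM in WM and 50.6, 73.8 and 134 CPM in RYGB. Every WM library lay below every Sham library, and in RYGB only RYGB 19, at 134 CPM, reached into the Sham range. Ccnd1 fell by 1.54 ± 0.21 on the log2 scale in WM (standard error; edgeR adjusted p 2.07e-06) and by 1.04 ± 0.20 in RYGB (adjusted p 0.000419), and the groups without overlap are to be read against 2.68% of all genes in WM. In GENCODE M21 (GRCm38) Ccnd1 lies at chr7:144929931-144939925 on the minus strand. Its 3′ end lies in LTO1 on the plus strand, which had 3.82 ± 1.89 CPM in Sham, 6.47 ± 2.69 CPM in WM and 3.74 ± 1.37 CPM in RYGB (SD, n = 8). Ccnd1 rested on 23938 reads in Sham, 7180 in WM and 9717 in RYGB. The 2 groups differed from each other by 0.51 ± 0.20, higher in RYGB, which did not pass the test (edgeR adjusted p 0.29).

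Cdk4, the kinase that cyclin D activates, rose in WM. Its lowest, median and highest values were 7.42, 7.9 and 13.6 CPM in Sham, 8.39, 14.8 and 23.3 CPM in WM and 6.09, 11.5 and 15.2 CPM in RYGB. The ranges overlapped, with all 8 WM libraries above the Sham median. The log2 fold change was 0.79 ± 0.22 in WM (edgeR adjusted p 0.00777) and 0.26 ± 0.22 in RYGB (adjusted p 0.411). Scaled by library totals alone, which moved the median of all genes to -0.33 in WM and -0.36 in RYGB, the values were 0.44 (adjusted p 0.0867) and -0.07. Over all alternatives the adjusted p in WM lay between 0.00247 and 0.0867. The 3′ end of Cdk4 lies in Tspan31 on the opposite strand, and as no strand setting is stated, reads of the 2 genes cannot be told apart. The same holds for 7 more members, Ccnd1, Ccne2, Mcm7, Ccna2, Cdc20, Ube2c and Prc1. Tspan31 had 93.9 ± 25.9 CPM in Sham, 91.6 ± 23.1 CPM in WM and 83.8 ± 15.3 CPM in RYGB (SD, n = 8).

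Ccne1 encodes cyclin E1, which starts replication with Cdk2. Its lowest, median and highest values were 0.259, 0.57 and 1.29 CPM in Sham, 0.726, 1.27 and 6.56 CPM in WM and 0, 0.287 and 1.41 CPM in RYGB, from 96, 254 and 55 reads. WM 1 held the highest value, and all 8 WM libraries lay above the Sham median. Ccne1 rose by 1.71 ± 0.62 in WM (edgeR adjusted p 0.0351), and its value in RYGB was -0.59 ± 0.64 (adjusted p 0.537). The call in WM was lost, with log2 fold changes from 1.24 to 1.71 and adjusted p from 0.0512 to 0.132, without Sham 2, 14, 16, 17 or 23, WM 1 or WM 27. It was also lost with library totals (adjusted p 0.0696), limma-trend (0.0642) and a correction for length and GC content (0.0533), and the adjusted p lay between 0.0129 and 0.132 over all alternatives.

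RYGB and WM lay furthest apart in the 2 cyclin E genes. Ccne1 was 2.30 ± 0.64 lower in RYGB than in WM on the log2 scale (edgeR adjusted p 0.0663). DESeq2 (adjusted p 0.00701), limma-voom with quality weights (0.0271) and limma-trend (0.0249) called this difference, as did edgeR without WM 9 (0.049), without RYGB 19 (0.02), without the 3 libraries with pancreatic transcripts (0.0397) and with the correction for length and GC content (0.0442). Over all alternatives the adjusted p lay between 0.00701 and 0.235. Ccne2, the gene of cyclin E2, is named here after its values were seen. Its lowest, median and highest values were 1.29, 2.93 and 5.35 CPM in Sham, 1.77, 3.84 and 12.5 CPM in WM and 0.496, 1.54 and 5.12 CPM in RYGB. RYGB 19 held the highest RYGB value and the ranges overlapped. The difference between RYGB and WM was -1.53 ± 0.43 (edgeR adjusted p 0.072), with an adjusted p of 0.00898 without RYGB 19, 0.0442 without WM 7, 0.0248 without the 3 libraries with pancreatic transcripts, 0.0149 in DESeq2 and 0.0358 in limma-trend, and up to 0.234 in the others. E2f1, a factor that switches on replication genes, had -0.55 in RYGB and -0.57 in WM against Sham, and neither passed the test.

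Of the 8 replication members, Mcm2 alone was called. Mcm2, a subunit of the replicative helicase, had lowest, median and highest values of 4.54, 6.58 and 10.3 CPM in Sham, 0.243, 2.19 and 5.57 CPM in WM and 1.35, 2.0 and 7.36 CPM in RYGB. WM 20 and RYGB 19 reached into the Sham range, and the other libraries of these groups lay below every Sham library. Mcm2 fell by 1.58 ± 0.37 in WM (edgeR adjusted p 0.00189) and by 1.26 ± 0.37 in RYGB (adjusted p 0.0132). The other 5 helicase subunits did not pass the test in either group. Mcm3 had -0.38 in RYGB and -0.44 in WM, Mcm4 -0.08 and -0.45, Mcm5 0.09 and 0.18, Mcm6 -0.38 and -0.19, and Mcm7 0.12 and -0.02. Whether Mcm2 differs from the other subunits was not tested.

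Pcna, the sliding clamp of the replication fork, had lowest, median and highest values of 10.1, 12.3 and 16.7 CPM in Sham, 8.85, 12.9 and 17.5 CPM in WM and 9.86, 14.5 and 20.9 CPM in RYGB. The 3 groups overlapped over most of their range. Its log2 fold change was 0.25 ± 0.18 in RYGB (edgeR adjusted p 0.328) and 0.11 ± 0.18 in WM (adjusted p 0.682), and with library totals the signs turned, to -0.11 and -0.20. Cdc45, which joins the helicase at firing origins, had -0.42 in RYGB and 0.33 in WM and passed the test in neither.

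Of the 3 genes of nucleotide supply, Rrm2 fell. Rrm2, the cell cycle regulated subunit of ribonucleotide reductase, had lowest, median and highest values of 3.2, 4.75 and 8.84 CPM in Sham, 1.13, 2.46 and 5.27 CPM in WM and 1.54, 2.57 and 3.97 CPM in RYGB. All 8 RYGB libraries lay below the Sham median, and the ranges overlapped. The log2 fold change was -0.96 ± 0.30 in RYGB (edgeR adjusted p 0.0214) and -0.78 ± 0.30 in WM (adjusted p 0.0492). The RYGB call was lost without Sham 2 (adjusted p 0.058) and without the 3 libraries with pancreatic transcripts (0.11), and the adjusted p was as low as 0.00389 elsewhere. The WM call was lost when any of 16 libraries was left out (adjusted p 0.0512 to 0.124), namely Sham 2, 5, 14, 17 or 23, WM 7, 13, 20, 25, 27 or 30, or RYGB 10, 15, 22, 28 or 29. It was also lost with limma-voom and library quality weights (0.0715), with no filter on low counts (0.0539), with the compared groups alone (0.0672) and without the 3 libraries with pancreatic transcripts (0.06), and was as low as 0.0121 elsewhere. Rrm1, the other subunit, had -0.34 and -0.41, and Tyms, thymidylate synthase, 0.25 and 0.28, in RYGB and WM, with no call.

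Among the 6 S to M cyclins, Cdk1 and anaphase genes, 2 were called lower in RYGB and 3 in WM, with medians of -1.26 and -1.50. Cdc20 had lowest, median and highest values of 2.08, 5.5 and 7.24 CPM in Sham, 0, 0.89 and 1.95 CPM in WM and 0.505, 1.66 and 3.97 CPM in RYGB, from 756, 118 and 255 reads. Every WM library lay below every Sham library, and RYGB overlapped both. Cdc20 fell by 2.42 ± 0.47 in WM (edgeR adjusted p 0.000285) and by 1.32 ± 0.45 in RYGB (adjusted p 0.0316). The RYGB call was lost (adjusted p 0.053 to 0.0621) without Sham 3, 5, 16 or 23 or without RYGB 15, 28 or 29, and the adjusted p was as low as 0.000682 in the other alternatives. The 3′ end of Cdc20 lies in Elovl1 on the other strand, which had 21.0 ± 9.66 CPM in Sham, 17.0 ± 12.0 CPM in WM and 23.9 ± 10.2 CPM in RYGB (SD, n = 8).

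Ube2c, the ubiquitin-conjugating enzyme that works with that complex, had lowest, median and highest values of 3.28, 4.25 and 6.61 CPM in Sham, 0.448, 1.79 and 4.73 CPM in WM and 0.758, 1.87 and 3.56 CPM in RYGB. WM 13 and RYGB 22 were highest in their groups and reached the Sham range, as did WM 20 (3.62 CPM). Ube2c fell by 1.21 ± 0.38 in RYGB (edgeR adjusted p 0.0188) and by 1.10 ± 0.37 in WM (adjusted p 0.0252). The WM call was lost without Sham 5 or without WM 1 (adjusted p 0.0503 to 0.0534, and as low as 0.00327 in the others). Its 3′ end lies in Tnnc2, a gene of the other strand that is not analysed here.

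Ccnb1, the gene of cyclin B1, had lowest, median and highest values of 0.445, 1.14 and 3.6 CPM in Sham, 0, 0.27 and 1.22 CPM in WM and 0, 0.451 and 1.46 CPM in RYGB. These are few reads, 224 in Sham, 53 in WM and 80 in RYGB, and the ranges overlapped. It fell by 2.01 ± 0.69 in WM (edgeR adjusted p 0.0266), a call lost without Sham 3 (-1.69, adjusted p 0.0674, and as low as 0.00805 in the others), and had -1.31 ± 0.67 in RYGB (adjusted p 0.161). Ccnb2, Cdk1 and Ccna2, for cyclin B2, the mitotic kinase and cyclin A2, passed in neither group, with -1.74, -0.96 and -0.33 in RYGB and -1.07, -1.37 and -1.63 in WM.

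Of the 7 mitotic kinase, passenger complex and checkpoint genes, 5 were tested and 1 was called in each group. Cdca3, a trigger of entry into mitosis, had lowest, median and highest values of 1.71, 3.02 and 4.08 CPM in Sham, 0.324, 1.55 and 3.81 CPM in WM and 0.527, 0.948 and 1.78 CPM in RYGB. Only the highest RYGB library reached into the Sham range. Cdca3 fell by 1.54 ± 0.39 in RYGB (edgeR adjusted p 0.00482) and had -0.87 ± 0.38 in WM (adjusted p 0.083), where WM 27 was highest. The WM value was called without WM 27, with library totals, with limma-voom and library quality weights, with limma-trend and with the correction for length and GC content, and its adjusted p lay between 0.0151 and 0.143 over all alternatives.

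Birc5 encodes survivin, the passenger protein that guides Aurora B. Its lowest, median and highest values were 1.56, 4.97 and 6.75 CPM in Sham, 0.523, 1.6 and 4.24 CPM in WM and 0, 1.66 and 4.63 CPM in RYGB. All WM and RYGB libraries lay below the Sham median, and the ranges overlapped. It fell by 1.33 ± 0.48 in WM (edgeR adjusted p 0.0364) and had -1.23 ± 0.48 in RYGB (adjusted p 0.0628). The WM call was lost without Sham 5, 16, 17 or 23, or WM 1, 7, 9, 25, 27 or 30 (adjusted p 0.0513 to 0.0678), with limma-trend (0.0628) and without the 3 libraries with pancreatic transcripts (0.0607), and the adjusted p was as low as 0.00573 elsewhere. The RYGB value was called without Sham 6, RYGB 10 or RYGB 19, with library totals, with DESeq2, with limma-voom and library quality weights and with limma-trend, and its adjusted p lay between 0.00279 and 0.124 over all alternatives.

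Aurka, Cdca8 and Plk1 passed in neither group, with -0.24, -0.39 and -0.93 in RYGB and -0.68, -0.85 and -1.41 in WM. These encode Aurora A, the passenger protein borealin and Polo-like kinase 1. The untested Aurkb, for Aurora B, had 57 reads in Sham, 40 in WM and 13 in RYGB, summed over 8 libraries each. Bub1b, for the checkpoint protein BubR1, had 104, 22 and 44 reads. Both genes have too few reads for a call on their direction. Without the filter, all 7 genes of this role had a negative fold change against Sham in each group, with 1 called in each.

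Of the centromere members, Cenpe and Cenpf fell furthest in WM. Cenpf had lowest, median and highest values of 2.52, 4.63 and 7.4 CPM in Sham, 0.081, 0.955 and 2.01 CPM in WM and 0.251, 1.45 and 4.07 CPM in RYGB. Every WM library lay below every Sham library, and RYGB 22 was the RYGB library within the Sham range. Cenpf fell by 2.43 ± 0.48 in WM (edgeR adjusted p 0.000279) and by 1.55 ± 0.46 in RYGB (adjusted p 0.0133). With the correction for length and GC content the RYGB value was -1.12 and was not called (adjusted p 0.0593, and as low as 0.000114 in the other alternatives).

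Cenpe, the motor that ties chromosomes to the spindle, had lowest, median and highest values of 1.73, 3.88 and 4.63 CPM in Sham, 0, 0.275 and 1.51 CPM in WM and 0.126, 1.05 and 4.32 CPM in RYGB. WM did not overlap Sham, and RYGB did, with RYGB 22 highest at 4.32 CPM. Cenpe fell by 2.68 ± 0.59 in WM (edgeR adjusted p 0.000955) and had -1.27 ± 0.55 in RYGB (adjusted p 0.0939). The RYGB value was called without RYGB 22, with library totals, with limma-voom and library quality weights, with limma-trend and with the compared groups alone, and its adjusted p lay between 0.00105 and 0.239 over all alternatives. Cenpe was 1.41 higher in RYGB than in WM, which did not pass the test (edgeR adjusted p 0.314). Cenpa had -0.08 and 0.01 in RYGB and WM.

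The 5 spindle and cytokinesis genes were all below 0 in both groups, with medians of -1.41 in RYGB and -1.43 in WM. Ect2, which starts the furrow that divides the cell, had lowest, median and highest values of 2.27, 3.67 and 5.54 CPM in Sham, 0.151, 1.17 and 2.54 CPM in WM and 0.503, 1.14 and 2.18 CPM in RYGB. It was the only member for which every RYGB library lay below every Sham library, where 2.1% of all genes did so, and in WM the ranges met. The gene lies at chr3:27097222-27153878 on the minus strand (GRCm38). Ect2 fell by 1.41 ± 0.38 in RYGB (edgeR adjusted p 0.00774) and by 1.43 ± 0.38 in WM (adjusted p 0.00506).

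Tpx2, which activates Aurora A at the spindle, had lowest, median and highest values of 0.597, 1.83 and 4.31 CPM in Sham, 0, 0.333 and 1.44 CPM in WM and 0, 0.26 and 1.14 CPM in RYGB. Sham 3, at 4.31 CPM, stood far above the other Sham libraries. Tpx2 fell by 2.11 ± 0.67 in RYGB (edgeR adjusted p 0.0204) and by 1.78 ± 0.65 in WM (adjusted p 0.0377). Without Sham 3 the RYGB value was -1.79 (adjusted p 0.0546, and as low as 0.00124 in the other alternatives). The WM call was lost without Sham 3, 5, 16 or 23, or WM 1, 7, 9, 20 or 30 (adjusted p 0.0559 to 0.0974), and with the correction for length and GC content (0.0648).

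Nusap1, which bundles spindle microtubules, had lowest, median and highest values of 1.56, 2.55 and 5.28 CPM in Sham, 0, 0.87 and 2.71 CPM in WM and 0.0632, 0.82 and 2.99 CPM in RYGB. The ranges overlapped, and RYGB 22 was the highest RYGB library. The log2 fold change was -1.54 ± 0.57 in WM (edgeR adjusted p 0.0382) and -1.52 ± 0.57 in RYGB (adjusted p 0.0506), so that only the WM value was called, although the sizes were alike. The WM call was lost without Sham 3, 5, 16 or 23, or WM 1, 7, 9, 27 or 30 (adjusted p 0.0505 to 0.0763), and with the correction for length and GC content (0.106). The RYGB value was called in 14 of 34 alternatives, among them those without Sham 2, 6 or 14, WM 1, 20 or 25, or RYGB 22, with an adjusted p between 0.00128 and 0.0979. Kif11, the motor that separates the spindle poles, and Prc1, which crosslinks the spindle midzone, had -1.24 and -1.06 in RYGB and -1.28 and -0.81 in WM, with no call.

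Mki67, the gene of the Ki-67 antigen that pathologists use to count cycling cells, had lowest, median and highest values of 1.73, 2.91 and 4.32 CPM in Sham, 0.151, 0.858 and 1.49 CPM in WM and 0.126, 0.539 and 2.99 CPM in RYGB. Every WM library lay below every Sham library, and RYGB 22, at 2.99 CPM, lay within the Sham range. Mki67 fell by 1.91 ± 0.50 in WM (edgeR adjusted p 0.00452) and by 1.79 ± 0.50 in RYGB (adjusted p 0.00948), from 445 reads in Sham, 106 in WM and 110 in RYGB. RYGB and WM differed by 0.12 (edgeR adjusted p 0.975).

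Top2a, the topoisomerase that untangles sister chromosomes, had lowest, median and highest values of 4.73, 8.51 and 11.0 CPM in Sham, 0.891, 2.55 and 8.29 CPM in WM and 0.527, 3.98 and 9.22 CPM in RYGB. WM 13 and RYGB 22 were the highest of their groups and lay within the Sham range, as did RYGB 10 (5.44 CPM) and RYGB 18 (5.79 CPM). It fell by 1.37 ± 0.44 in WM (edgeR adjusted p 0.0179) and had -1.01 ± 0.43 in RYGB (adjusted p 0.0893). The RYGB value was called without RYGB 22, with library totals, with limma-voom and library quality weights and with limma-trend, and its adjusted p lay between 0.000658 and 0.225 over all alternatives. With the correction for length and GC content the WM value was -1.04 and was not called (adjusted p 0.0691, and as low as 0.00213 in the other alternatives).

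**Figure D4:**
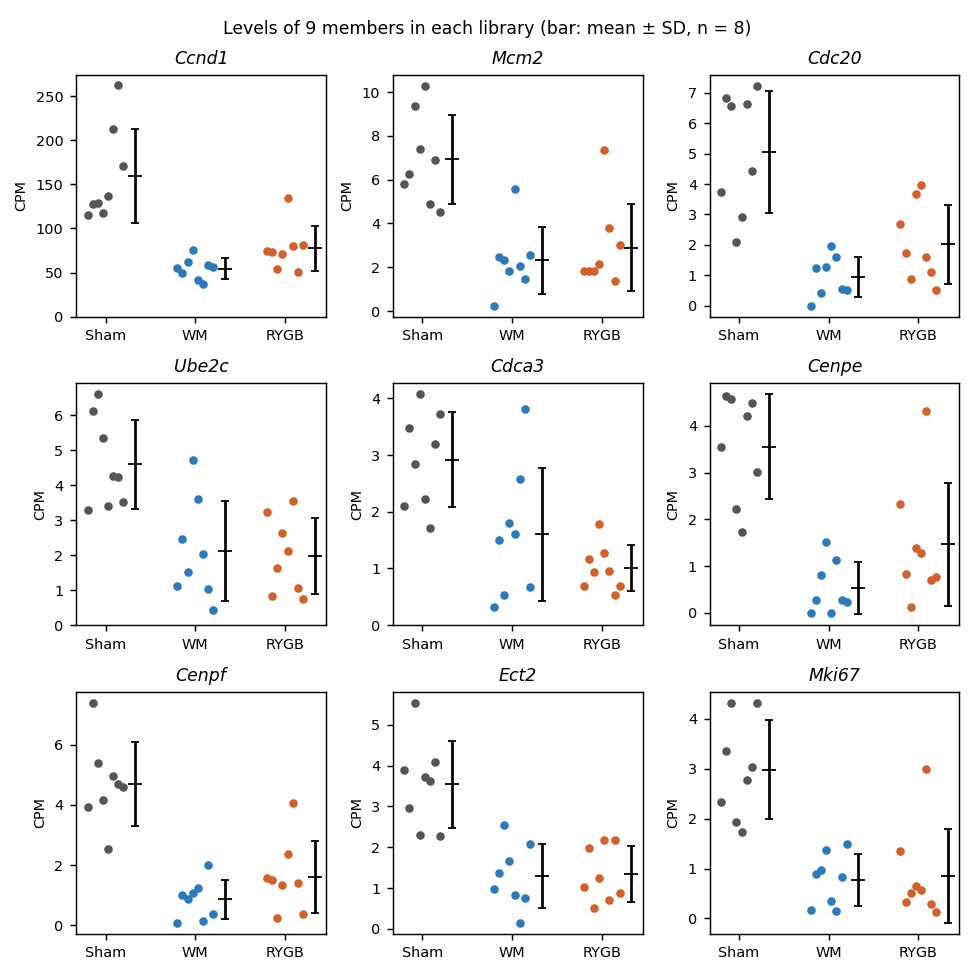
Levels in CPM (y axis, linear) of the 9 members whose call against Sham in at least 1 group held in all 34 alternatives, with each library as a point and the mean ± SD (n = 8) as a bar. Sham lies highest in each panel, and WM does not overlap it for Ccnd1, Cdc20, Cenpe, Cenpf and Mki67, nor does RYGB for Ect2.

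Against Sham, the calls of Ccnd1, Mcm2, Ube2c, Cdca3, Ect2 and Mki67 in RYGB held in all 34 alternatives, as did those of Ccnd1, Mcm2, Cdc20, Cenpe, Cenpf, Ect2 and Mki67 in WM. Libraries differed in how levels followed transcript length. For each gene, log2 CPM was taken as the deviation from its mean over all 24 libraries. The slope of this deviation on log2 transcript length lay between 0.0926 and 0.241 in the Sham libraries. In the WM libraries it lay between -0.212 and 0.0539, and in the RYGB libraries between -0.148 and 0.0233. The median of the longest transcripts was 3526 bp for late members, 3194 bp for early members and 3229 bp for all tested genes. Cenpf (11130 bp), Mki67 (10061 bp) and Cenpe (7910 bp) had the longest transcripts of the late members. With a correction for length and GC content, chosen after seeing the data, the late median was -1.06 in RYGB and -1.26 in WM. The medians of all genes were then 0.06 in RYGB and 0.08 in WM. Late members called lower then numbered 7 in RYGB and 9 in WM, where the main fit called 7 and 11.

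Other genes of the pathway were read from 4 lists. Of 38 tested other mitosis genes (56 in the table), 7 were lower and 2 higher in RYGB, and 15 lower (14 without the filter) and 2 higher in WM, with medians of -0.85 and -1.12. The lower share was 18.4% in RYGB, where all genes had 11.0%, and 39.5% in WM, where all genes had 15.0%. The sum over the 56 genes had medians of 299 CPM in Sham, 294 CPM in WM and 276 CPM in RYGB, with overlapping ranges. Hmmr, a spindle-associated protein, had 1.26, 2.21 and 3.31 CPM in Sham (lowest, median, highest), 0, 0.115 and 0.545 CPM in WM and 0, 0.394 and 0.89 CPM in RYGB, with no overlap of either group with Sham. It fell by 3.58 ± 0.67 in WM (edgeR adjusted p 0.00018) and by 2.54 ± 0.63 in RYGB (adjusted p 0.0038). Spc25, of the Ndc80 kinetochore complex, fell by 1.52 ± 0.24 in RYGB (edgeR adjusted p 2.75e-05). Smc4, a condensin subunit, fell by 1.11 ± 0.19 in WM (edgeR adjusted p 6.08e-05). Spc25 was also called lower in WM, and Smc4 in RYGB.

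Of this list, Cenpm and Cks1b were called between RYGB and WM. Cenpm, a centromere protein, had lowest, median and highest values of 1.6, 3.16 and 4.7 CPM in Sham, 1.12, 3.38 and 6.4 CPM in WM and 6.93, 10.0 and 14.1 CPM in RYGB. Every RYGB library lay above every library of the other groups. Cenpm rose by 1.69 ± 0.27 against Sham (edgeR adjusted p 4.21e-05) and was 1.48 ± 0.27 higher in RYGB than in WM (adjusted p 0.00214). Cks1b, a small partner of the Cdks, had 7.53, 9.89 and 13.2 CPM in Sham, 10.1, 22.1 and 42.0 CPM in WM and 7.79, 11.0 and 13.4 CPM in RYGB. It rose by 1.28 ± 0.24 in WM (edgeR adjusted p 0.000139) and was 1.21 ± 0.24 lower in RYGB than in WM (adjusted p 0.0041), with overlapping ranges. All 4 of these calls held in the 34 alternatives.

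Of the 54 tested other replication genes, 8 were higher and 2 lower in RYGB, and 8 higher and 5 lower in WM, with medians of -0.08 and -0.03. The higher share, 14.8% in each group, was near that of all genes (12.7% in RYGB, 16.5% in WM), and the lower share was 3.70% in RYGB and 9.26% in WM, where 11.0% and 15.0% of all genes were lower. Tk1, the thymidine kinase of the cell cycle, had lowest, median and highest values of 4.33, 7.57 and 10.2 CPM in Sham, 20.9, 29.6 and 53.0 CPM in WM and 14.3, 23.3 and 30.1 CPM in RYGB. It rose by 2.13 ± 0.22 in WM (edgeR adjusted p 4.37e-08) and by 1.64 ± 0.22 in RYGB (adjusted p 3.4e-06), with no overlap with Sham. Mcm10, which helps to start replication, had 18.2, 42.9 and 51.8 CPM in Sham, 77.0, 149 and 219 CPM in WM and 61.0, 84.2 and 134 CPM in RYGB. It rose by 1.85 ± 0.22 in WM (edgeR adjusted p 4.01e-07) and by 1.16 ± 0.21 in RYGB (adjusted p 0.00023), again with no overlap. The 3′ end of Tk1 lies in a gene of the other strand, Gm20708, which is not analysed here, so reads of the pair cannot be told apart.

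Of 28 tested other cyclins, Cdks and regulators, 5 were lower and 3 higher in each group against Sham, with medians of -0.05 in RYGB and -0.14 in WM. These shares were 17.9% lower and 10.7% higher, where all genes had 11.0% lower and 12.7% higher in RYGB. In WM all genes had 15.0% lower and 16.5% higher. Cdk6, the second kinase of cyclin D, had lowest, median and highest values of 53.4, 91.2 and 156 CPM in Sham, 17.1, 31.2 and 42.7 CPM in WM and 26.3, 37.1 and 51.9 CPM in RYGB. It fell by 1.69 ± 0.22 in WM (edgeR adjusted p 1.06e-06) and by 1.31 ± 0.21 in RYGB (adjusted p 5.17e-05), with no overlap with Sham. Anapc11, a subunit of the anaphase-promoting complex, rose by 1.16 ± 0.20 in WM (edgeR adjusted p 6.55e-05) and by 0.98 ± 0.20 in RYGB (adjusted p 0.000688).

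The list of cell cycle brakes also holds regulators and partners of brakes, such as Mdm2 and Rbbp4. Of its 36 tested genes, 10 were lower and 4 higher in RYGB, and 10 lower and 5 higher in WM. Their medians were -0.26 and -0.21. The lower share was 27.8% in each group, where 11.0% and 15.0% of all genes were lower, and the higher shares, 11.1% and 13.9%, were near those of all genes (12.7% and 16.5%). Cdkn1a, the gene of the Cdk inhibitor p21, had lowest, median and highest values of 11.1, 35.9 and 79.1 CPM in Sham, 0.81, 2.02 and 6.05 CPM in WM and 2.15, 4.4 and 8.45 CPM in RYGB. No WM or RYGB library reached the lowest Sham library. Cdkn1a fell by 3.94 ± 0.46 in WM (edgeR adjusted p 3.32e-07) and by 3.15 ± 0.44 in RYGB (adjusted p 7.27e-06). Zmat3, the gene of an RNA-binding protein, fell by 1.15 ± 0.22 in RYGB (edgeR adjusted p 0.000316). Btg2, an antiproliferative gene, fell by 1.66 ± 0.19 in WM (edgeR adjusted p 3.26e-07). Zmat3 was also called lower in WM, and Btg2 in RYGB. Other genes of this list went the opposite way. Cdkn2a, which encodes the Cdk inhibitor p16 and the protein Arf, had lowest, median and highest values of 0, 0.273 and 0.668 CPM in Sham, 0.415, 1.25 and 12.7 CPM in WM and 0.658, 1.36 and 2.43 CPM in RYGB. WM 13 held the highest value, and the WM value rose by 3.10 ± 0.64 (edgeR adjusted p 0.000536), a call kept in all 34 alternatives. Cdkn1b, the gene of the Cdk inhibitor p27, rose by 0.56 ± 0.16 in RYGB (edgeR adjusted p 0.0106), a call lost with library totals (0.20, adjusted p 0.414, and as low as 0.000439 in the others). Cdkn2a was also called higher in RYGB, and Cdkn1b in WM. Rbbp4, a histone binding protein of the DREAM repressor, rose by 1.26 ± 0.13 in WM (edgeR adjusted p 4.59e-08) and by 0.95 ± 0.13 in RYGB (adjusted p 5.05e-06), and its 3′ end lies in Sync on the other strand. Between RYGB and WM, Btg2 was called higher in RYGB and Gadd45a lower, 1 of 36 in each direction (2.78%). Of all genes, 1.06% were called higher in RYGB and 0.434% lower. Each of these calls held in only 14 of 34 alternatives.

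**Figure D5:**
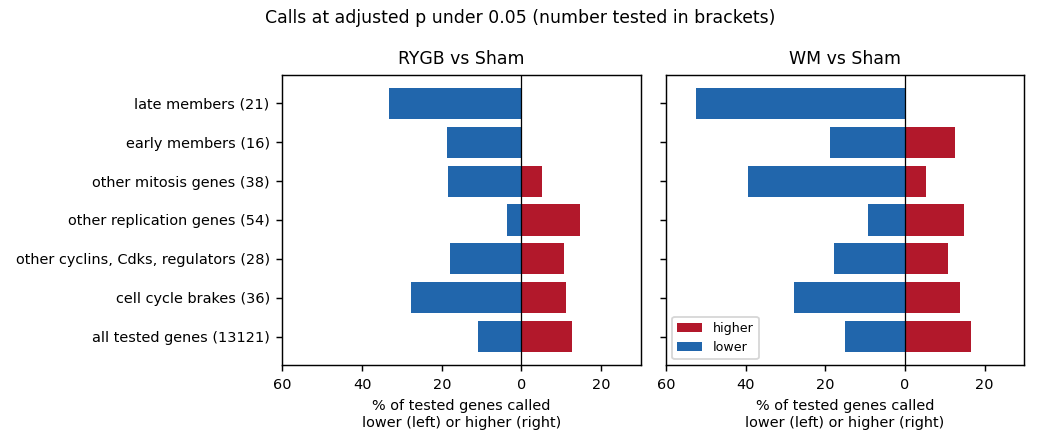
Share of tested genes called lower (blue, to the left) or higher (red, to the right) than in Sham at an adjusted p under 0.05, for late and early members, 4 pathway lists and all 13121 tested genes. The bar of the late members reaches furthest left, with 33.3% called lower in RYGB and 52.4% in WM, followed by the cell cycle brakes in RYGB (27.8%) and the other mitosis genes in WM (39.5%). The bars to the right stay near or under those of all genes, 12.7% and 16.5%.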

How the data were processed

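The authors deposited whole-number counts of 3′ end reads per gene for 24 libraries, and a normalized signal in which, as tested on the deposited tables, each count is divided by 1 factor per library (largest relative deviation 5e-15). Libraries came from the QuantSeq 3′ kit and were read for 50 bp, per the labels' protocols. DESeq2 1.34 and R 4.1.2 are listed in the submitters' processing notes. For the aligner, counter, genome build, annotation and strand setting, nothing is given in the sources used here. The smallest total of any gene over the libraries is 72 counts. Library totals were 13659647 to 22766612 counts, and 1 read is worth more in the shallower libraries, which limits genes near 1 CPM.

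The 39 members were found by the gene names of the normalized table and their counts by Ensembl ID. Members, lists and tests were chosen with earlier results of these data known. Counts were tested in R 4.3.3 with edgeR 4.0.16: filterByExpr (13121 genes), TMM scaling, 1 quasi-likelihood fit over all 24 libraries without covariate, and Benjamini-Hochberg adjustment over all tested genes. Standard errors belong to the log2 fold changes. Values in CPM are TMM-scaled and not divided by length. The script was tested on simulated counts. Full values are given for the 17 members called in any comparison and for Mki67, Top2a, Ccnd1, Cdk4 and Pcna, and from each pathway list for some of the 2 genes of smallest p per comparison and direction with a mean of at least 1 CPM. Alternatives were RLE scaling, library totals, DESeq2 1.42.0, limma-voom with library quality weights and limma-trend (limma 3.58.1; pseudocount 1 on the deposited normalized signal), no filter, 1 CPM in 8 libraries, the compared groups alone, leaving out Sham 17, RYGB 18 and RYGB 19, leaving out each library in turn, and, chosen after seeing the data, a correction for transcript length and GC content (mgcv 1.9.3). Transcript lengths and neighbours came from GENCODE M21 (GRCm38), which holds 14959 of the genes.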

Additional observations from a re-analysis of the deposited data

Results flagged for a closer look

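Of 54 groups of 8 libraries (18 members in 3 groups), 7 held a library whose gap to the next one was large for the range of its group. The cutoff gives about 1 in 20 for independent groups of normally spread values. These groups share libraries and many rest on few reads, so that rate cannot be applied to them. In RYGB 19, Ccnd1 stood at 134 CPM and Mcm2 at 7.36 CPM, above the other RYGB libraries. Mcm2 stood high in WM 20, at 5.57 CPM. WM 13 stood high in Ccnb1, at 1.22 CPM, and in Top2a, at 8.29 CPM. Mki67 stood high in RYGB 22, at 2.99 CPM. Tpx2 stood high in Sham 3, at 4.31 CPM.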

How the results depend on the processing

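No paired analysis was possible because the groups share no replicate number. Against Sham, the members called lower in RYGB (10) became 20 with library totals and 22 with limma-voom and library quality weights (2 changes at once), and 8 to 14 when 1 library was left out. In RYGB 0 members were called higher, 0 to 0 with 1 library left out. The members called lower in WM (14) became 22 with library totals and 9 to 15 with 1 library left out, and those called higher (2) became 0 with library totals, 1 with limma-trend, and 1 to 2 with 1 library left out. Between RYGB and WM, members called lower (0) became 2 with DESeq2, 1 with limma-voom, 2 with limma-trend, 2 without the 3 libraries with pancreatic transcripts, 1 with the correction for length and GC content, and 0 to 2 with 1 library left out, with 0 to 0 called higher. Over all genes, 3109 were called in RYGB against Sham (5018 with limma-voom; 2648 to 3514 with 1 library left out), 4125 in WM against Sham (3645 to 4299), and 196 between RYGB and WM (361 with DESeq2, 121 from the compared groups alone, 341 with the correction; 136, without RYGB 10, to 257, without WM 25). Signs turned only for values without a call. With library totals Cdk4 had -0.07 and Pcna -0.11 in RYGB against Sham, Pcna -0.20 in WM against Sham, and Ect2 -0.07 between RYGB and WM. With the correction, Pcna had -0.04 in WM against Sham, and Nusap1 -0.13 and Mki67 -0.00 between RYGB and WM. Between RYGB and WM, limma-voom gave Birc5 -0.09, Nusap1 -0.30, Ect2 -0.29, Mki67 -0.46 and Top2a -0.10, limma-trend gave Birc5 -0.43 and Mki67 -0.05, and without the 3 libraries with pancreatic transcripts Mcm2 had -0.02, Nusap1 -0.03 and Ect2 -0.12. With 1 library left out, the same difference ranged from -0.03 to 0.64 for Mcm2, -0.28 to 0.18 for Ube2c, -0.20 to 0.39 for Birc5, -0.73 to 0.05 for Tpx2, -0.42 to 0.40 for Nusap1, -0.14 to 0.24 for Ect2 and -0.50 to 0.31 for Mki67. The causes were not tested. Genes near 1 CPM rest on a few reads per library, which limits their precision.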
